A study of Homo sapiens with 12 samples.

Results

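The 6 regulators followed across the 4 states of the experiment are encoded by genes that p53 controls or that act on p53. They were the ubiquitin ligases *MDM2* and *RCHY1*, the MDM2 partner *MDM4*, the phosphatase *PPM1D*, the cyclin *CCNG1* and the p53 cofactor *TP53INP1*. They were taken by gene symbol, and all 6 were found among the 60580 genes listed and among the 16123 genes tested. HCT116 is a human colorectal cancer cell line with intact p53. Clones with CRISPR/Cas9 deletions of both miR-34 loci, the regions encoding miR-34a and miR-34b/c (*miR-34a/b/c-KO*, here *KO*), were set beside unedited clones (*WT*). Either genotype received 5-FU (4 µM) or the solvent DMSO, and RNA was collected after 48 h. According to the study, both genotypes were kept as single-cell-derived clones, the *WT* clones after transfection of Cas9 without a guide RNA. Which clones gave these libraries was not given in the sources used here, so that clonal differences and the deletion cannot be told apart. The file labelled *WT* 5-FU replicate 1 was identical to that of *WT* DMSO replicate 3 and was left out. *WT* cells treated with 5-FU were therefore represented by 2 libraries (replicates 2 and 3) and each other state by 3.

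p53 is a transcription factor that is activated by DNA damage, and 5-FU, which blocks thymidylate synthesis and is incorporated into nucleic acids, is one of the drugs that activate it. MDM2 binds p53 and marks it for degradation, while *MDM2* is itself a p53 target, which closes the best known negative feedback loop of the pathway. MDM4 lacks effective ligase activity of its own but pairs with MDM2 and covers the activation domain of p53, RCHY1 (Pirh2) is another p53-inducible ligase, PPM1D (Wip1) removes the activating phosphates from p53 and its upstream kinases, cyclin G1 recruits the phosphatase PP2A to MDM2, and TP53INP1 helps kinases to phosphorylate p53 and thus acts as a positive partner. The miR-34 genes are p53 targets too, and their products repress mRNAs that match the seed at bases 2 to 8.

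Mature miR-34a-5p and miR-34b-5p are printed first, because the deletion removes them and their seeds define the sites searched in the regulators. The deletion removes miR-34c too, but its mature sequence was missing from the reference used. It is not printed, and its seed was not compared with the sites below. The capitals mark the seed, and the sequences and positions are those of RefSeq (GRCh38.p14).
hsa-miR-34a-5p, chr1:9151735-9151756, minus strand: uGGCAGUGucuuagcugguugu
hsa-miR-34b-5p, chr11:111512950-111512972, plus strand: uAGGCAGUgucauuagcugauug
The 2 seeds are offset by 1 base and share GGCAGU.

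In the 3′ UTRs annotated by GENCODE 44 on GRCh38, *MDM4* held 5 sites that pair with the whole miR-34a seed (CACTGCC), and each of them was followed by an A, which makes it an 8mer (CACTGCCA). Of these, 4 lay in the canonical transcript, in 7 of 9 annotated transcripts, and the remaining one, the first below, in 2 of 9. The 30 bases around each site on the plus strand are shown with the 8mer in capitals, and the positions are those of the 7 bases opposite the seed.
*MDM4* site, chr1:204549247-204549253: ctccacgtctgatatCACTGCCAtacctga
*MDM4* site, chr1:204553242-204553248: cagattttttttactCACTGCCActaaact
*MDM4* site, chr1:204553935-204553941: ccatgccagcctccaCACTGCCActaactt
*MDM4* site, chr1:204553969-204553975: aatgtaagattgagtCACTGCCAagcattt
*MDM4* site, chr1:204554556-204554562: atgtctggaattttgCACTGCCAtagggaa
*TP53INP1* held 1 such 8mer. The other 4 regulators held none. Among 13084 tested genes with an annotated 3′ UTR, 20.6% held CACTGCC and 7.0% held CACTGCCA. Only 2 of them, *MDM4* included, held at least 5 8mers within 1 transcript. The site of miR-34b-5p (ACTGCCT) was found in 18.5% of these genes, and among the 6 regulators in *CCNG1*, with 2 sites in 1 transcript. A sequence match was taken as a description and not as evidence of targeting. UTR length was not matched in these shares, and that of *MDM4*, 9419 bases at its longest, was the longest of the 6.

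The start region of *MDM2* is printed because the 5-FU response of this gene was large and its internal start site carries sequences like the p53 consensus. The window covers 250 bases before and 50 after the start (RefSeq, GRCh38.p14, plus strand), and capitals mark matches to the p53 consensus of 2 half-sites without a spacer, allowing at most 3 mismatches of its 20 bases on either strand.
*MDM2* internal start, chr12:68808767-68809066: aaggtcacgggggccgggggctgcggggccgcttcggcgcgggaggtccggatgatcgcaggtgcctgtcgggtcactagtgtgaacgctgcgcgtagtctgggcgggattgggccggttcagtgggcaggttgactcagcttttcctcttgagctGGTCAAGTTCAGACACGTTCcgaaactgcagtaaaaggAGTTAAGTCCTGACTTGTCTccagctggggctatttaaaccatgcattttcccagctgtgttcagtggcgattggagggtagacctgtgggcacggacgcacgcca
The first match (chr12:68808923-68808942) had 2 mismatches and the second (chr12:68808961-68808980) had 3. They began 94 and 56 bases before the start. The windows of the upstream *MDM2* start and of *MDM4*, *PPM1D*, *CCNG1* and *RCHY1* held no such match, which says only that these letters were not in these windows. Of all 35116 windows 5.2% held one, as did 6.39% of the 27305 genes, and 5 of the 6 regulators were in the table.

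Totals of the 11 libraries ranged from 22831415 to 39064210 counts. Levels are given as CPM, the count of a gene relative to the scaled total of its library. At 620 to 38795 counts per library, the 6 regulators were far above the counting limit. Libraries of the same state correlated at r = 0.9893 to 0.9929 across genes and those of different states at 0.943 to 0.9776. Genes are not independent replicates. The study calls its replicates biological, but the labels do not say whether they were separate cultures or clones, so that the tests measure the spread between libraries, which may be technical. Differences were tested with the quasi-likelihood test of edgeR, adjusted over all genes tested (FDR). A gene was called when its FDR was below 0.05 and its fold change above 1.5, and "rose" and "fell" are used for calls only. The epithelial markers *EPCAM* (296 to 443 CPM), *CDH1* (106 to 208 CPM), *KRT8* (2316 to 6094 CPM) and *KRT18* (1082 to 3069 CPM) were abundant. Of the intestinal markers, *CDX2* stood at 19.8 to 26.3 CPM, whereas *KRT20* and *VIL1* were low. Under DMSO and 5-FU *KRT20* stood at 6.51 and 6.62 CPM in *WT* but at 1.33 and 1.25 CPM in *KO* cells, and *VIL1* at 0.254 and 0.452 CPM in *WT* and at 0.0361 and 1.48 CPM in *KO* cells. Of 4 markers of other cell types, *PTPRC* had 0 or 1 count and *PECAM1* 0 to 9 counts per library. The mesenchymal marker *VIM* stood at 2.37 CPM in *WT* and 12.3 CPM in *KO* cells under DMSO and at 1.66 and 4.37 CPM under 5-FU, and *COL1A1* at 24.99, 48.0, 54.7 and 70.1 CPM in the same order. The part of these genes in the results below was not tested. *CDKN1A*, the p53 target encoding p21, rose under 5-FU from 167 ± 1.18 to 2078 ± 143 CPM in *WT* cells (SD, n = 3 and 2) and from 469 ± 17.5 to 2481 ± 51.9 CPM in *KO* cells (n = 3 each). The 3 miR-34 hairpin entries were at 0 counts in all 11 libraries and could not check the deletion. *MIR34AHG*, the host transcript of miR-34a, had 4.84 CPM in *WT* and 22.2 CPM in *KO* cells under DMSO, and 16.2 and 64.6 CPM under 5-FU.

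The first question was how 5-FU changed these regulators. In both genotypes *MDM2*, *PPM1D* and *TP53INP1* rose and *MDM4*, *CCNG1* and *RCHY1* were not called. Thus, 3 of 6 rose and 0 fell in *WT* cells, where 18.5% of all genes were called higher and 9.38% lower, and 3 rose and 0 fell in *KO* cells, where 13.3% were called higher and 12% lower. By FDR alone, 4 regulators were higher and 1 was lower in *WT* cells (60.2% of all genes in either direction) and 4 were higher in *KO* cells (60.4%). The counts at an unadjusted p under 0.05 were the same as by FDR alone in each direction and comparison of the 6 regulators, and DESeq2 called 0 wherever edgeR called 0. The median log2 fold change of the 6 was 1.21 in *WT* and 1.26 in *KO* cells, beside 0.03 and -0.06 over all genes. When 1 factor of unwanted variation (RUVg) was added, the estimated log2 fold changes and their SE both became larger. Those of *MDM4* and *RCHY1* changed sign. As 98.2% of the variance of this factor lay between the treatments, the fit can hardly separate it from 5-FU. Its values therefore cannot serve as sizes of the 5-FU change. *MDM2* was called, at 6.15 ± 0.749 in *WT* and 4.88 ± 0.665 in *KO* cells (FDR = 0.008 and 0.0328). *PPM1D* (2.49 ± 0.671 and 2.76 ± 0.595, FDR = 0.132 and 0.0756) and *TP53INP1* (4.58 ± 1.03 and 3.83 ± 0.918, FDR = 0.113 and 0.0816) were not. In bulk RNA, more cells expressing a gene and more RNA per cell cannot be told apart.

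*MDM2* (chr12:68808177-68845544, plus strand), the main ligase of p53, had 142, 145 and 134 CPM in *WT* cells and 197, 189 and 192 CPM in *KO* cells under DMSO. Under 5-FU it had 1005 and 1232 CPM in *WT* cells and 818, 794 and 822 CPM in *KO* cells. The 4 states did not overlap, and their order was *WT* DMSO, *KO* DMSO, *KO* 5-FU and *WT* 5-FU. The increase was 7.96-fold in *WT* cells (log2 2.99 ± 0.071, SE, FDR = 1.11e-14) and 4.22-fold in *KO* cells (log2 2.08 ± 0.065, FDR = 2.62e-13). Exons of *MDM2* overlap those of *CPM* and ENSG00000257181 on the opposite strand and of ENSG00000256664 on the same strand, by at most 785 bases. Whether the counting used strand was not given in the sources used here, and reads of these stretches could belong to either gene.

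The phosphatase gene *PPM1D* (chr17:60600193-60666280, plus strand) had 43.9, 46.0 and 46.0 CPM in *WT* cells and 52.6, 52.7 and 53.2 CPM in *KO* cells under DMSO. With 5-FU it reached 180 and 184 CPM in *WT* cells and 265, 261 and 271 CPM in *KO* cells. Again no states overlapped, but here *KO* cells treated with 5-FU were the highest. *PPM1D* rose 4.02-fold in *WT* cells (log2 2.01 ± 0.048, FDR = 1.11e-14) and 5.02-fold in *KO* cells (log2 2.33 ± 0.045, FDR = 8.76e-16). It had the smallest difference between the 2 *WT* 5-FU libraries among the 6 regulators, a ratio of 1.02.

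*TP53INP1* (chr8:94925972-94949378, minus strand), which promotes p53 phosphorylation and autophagy, had 31.4, 27.4 and 30.8 CPM in *WT* cells and 80.3, 81.1 and 81.4 CPM in *KO* cells under DMSO. Its levels under 5-FU were 224 and 267 CPM in *WT* cells and 443, 438 and 450 CPM in *KO* cells. The order of states was that of *PPM1D*, without overlap. The increase was 8.20-fold in *WT* cells (log2 3.04 ± 0.073, FDR = 1.11e-14) and 5.48-fold in *KO* cells (log2 2.45 ± 0.066, FDR = 4.45e-14). Its exons share 225 bases with *NDUFAF6* on the opposite strand.

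*CCNG1* (chr5:163437569-163446151, plus strand), which encodes cyclin G1, had 182, 182 and 181 CPM in *WT* and 182, 173 and 186 CPM in *KO* cells under DMSO. It had 216 and 271 CPM in *WT* and 250, 239 and 250 CPM in *KO* cells under 5-FU. All 5-FU libraries lay above all DMSO libraries, while the genotypes overlapped under each treatment. The difference of 1.34-fold in *WT* (FDR = 0.000106) and 1.36-fold in *KO* cells (FDR = 2.14e-05) did not reach the minimum fold change.

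*MDM4* (chr1:204516379-204558120, plus strand), the partner of MDM2 and the gene with 5 seed sites, had 64.8, 70.4 and 66.4 CPM in *WT* and 74.1, 71.3 and 67.7 CPM in *KO* cells under DMSO. Under 5-FU it had 44.7 and 56.7 CPM in *WT* cells and 69.4, 65.0 and 67.0 CPM in *KO* cells. The 2 *WT* 5-FU libraries were below the other 9, which overlapped among themselves. In *WT* cells the log2 difference between 5-FU and DMSO was -0.41 (95% interval -0.58 to -0.23, FDR = 0.000449), short of the minimum fold change, and in *KO* cells it was -0.08 (-0.24 to 0.07, FDR = 0.356). The 2 *WT* libraries weigh on this value. Without replicate 3 the difference was -0.59 and called, and without replicate 2 it was -0.25.

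*RCHY1* (chr4:75479033-75514764, minus strand), the other ligase, had 37.8, 33.8 and 34.1 CPM in *WT* and 31.6, 32.1 and 32.0 CPM in *KO* cells under DMSO. It had 26.2 and 35.4 CPM in *WT* and 28.7, 32.1 and 27.7 CPM in *KO* cells under 5-FU. The treatments overlapped in both genotypes, and no change was detected in *WT* (log2 -0.20, 95% interval -0.42 to 0.02, FDR = 0.111) or *KO* cells (-0.11, -0.32 to 0.09, FDR = 0.325). The *WT* value depended on the library left out. It ranged from -0.43 to 0.0034, the latter without *WT* 5-FU replicate 2. Its exons share 315 bases with *THAP6* on the opposite strand.

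The 2 *WT* 5-FU libraries differed more for 5 of these regulators than for most genes. Replicate 3 exceeded replicate 2 by a factor of 1.22 for *MDM2*, 1.27 for *MDM4*, 1.25 for *CCNG1*, 1.195 for *TP53INP1* and 1.35 for *RCHY1*, whereas over 14773 genes the middle 50% of such ratios lay between 0.885 and 1.15. For *PPM1D* the ratio was 1.02. As levels per transcript length (CPM per kilobase of the canonical transcript), *CCNG1* was the most abundant of the 6 in *WT* cells under DMSO (74.3 ± 0.327), followed by *MDM2* (18.8 ± 0.795), *PPM1D* (9.502 ± 0.263), *RCHY1* (7.997 ± 0.508), *MDM4* (6.69 ± 0.285) and *TP53INP1* (5.32 ± 0.387), and no neighbours in this order overlapped. Under 5-FU *MDM2* was first in both genotypes, at 149 ± 21.4 in *WT* and 108 ± 2.08 in *KO* cells, and *CCNG1* second, at 99.7 ± 15.8 and 101 ± 2.52. *TP53INP1* was in the third place (43.8 ± 5.49 and 79.1 ± 1.08), which it already held in *KO* cells under DMSO (14.4 ± 0.0954), ahead of *PPM1D* (38.2 ± 0.587 and 55.7 ± 1.05), and *RCHY1* (6.99 ± 1.48 and 6.69 ± 0.523) and *MDM4* (5.04 ± 0.850 and 6.68 ± 0.215) were last. The last pair overlapped in *KO* cells, and no other neighbours did in either genotype. Places in these orders depend on the length used, and other lengths were not tried. All annotated exons of *PPM1D* together cover 9408 bases against 4768 in the canonical transcript, and those of *RCHY1* 6337 against 4408.

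**Figure D1:**
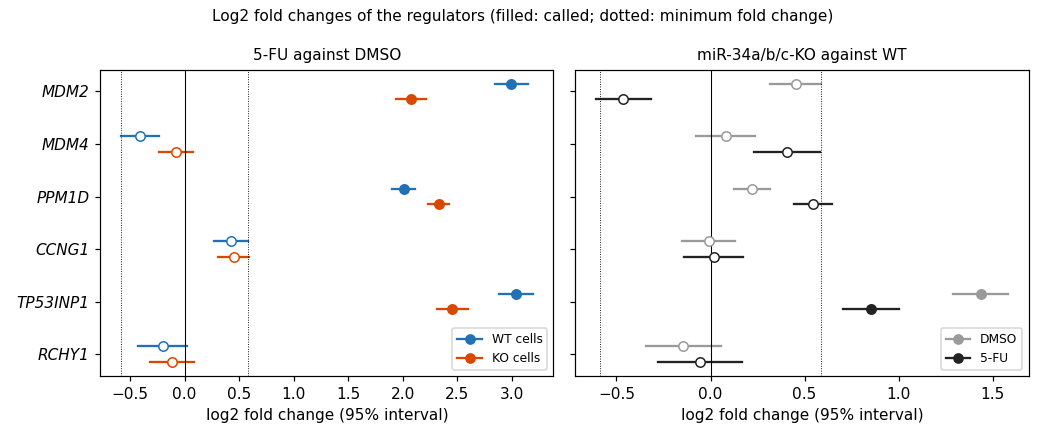
Log2 fold changes (x axes) with 95% intervals of the 6 regulators for 5-FU against DMSO (left) and *KO* against *WT* (right), filled where called, with dotted lines at the minimum fold change of 1.5. *MDM2* was higher in *KO* cells under DMSO (0.45) and lower under 5-FU (-0.46), and only *TP53INP1* was called in the comparisons of genotypes.

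The next question was whether the regulators differed between genotypes. As these comparisons share libraries with those of 5-FU, their values are not independent of them. Of the 6, *TP53INP1* was called higher in *KO* cells under DMSO and under 5-FU, and none was called lower. Among all genes 9.1% were called higher and 4.97% lower under DMSO, and 7.58% higher and 10.6% lower under 5-FU. By FDR alone, 3 regulators were higher under DMSO (46.3% of all genes in either direction), and 3 were higher and 1 was lower under 5-FU (49.6%). The median log2 difference of the 6 was 0.15 under DMSO and 0.21 under 5-FU, beside 0.03 and -0.05 over all genes.

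*TP53INP1* was 2.71-fold higher in *KO* cells under DMSO (log2 1.44 ± 0.068, FDR = 1.08e-10) and 1.81-fold higher under 5-FU (0.85 ± 0.071, FDR = 7.85e-08). *MDM2* was higher under DMSO (0.45, 95% interval 0.32 to 0.59, FDR = 2.54e-05) but lower under 5-FU (-0.46, -0.61 to -0.32, FDR = 4.23e-05), in both cases below the minimum fold change. *PPM1D* was 0.22 higher under DMSO (FDR = 0.000805) and 0.54 higher under 5-FU (FDR = 1.29e-07). The latter, at 1.46-fold, was just below the minimum and was called with TMM factors (0.59) and by DESeq2 (0.60). *MDM4* did not differ detectably under DMSO (0.08, -0.07 to 0.24, FDR = 0.394) and was 0.41 higher under 5-FU (0.23 to 0.58, FDR = 0.000679), where the 2 *WT* libraries lay below the 3 *KO* libraries. Without *WT* 5-FU replicate 3 this *MDM4* difference was 0.59 and called, and without replicate 2 it was 0.25. Likewise, the *MDM2* difference under 5-FU was -0.60 without *WT* 5-FU replicate 2. With each library left out in turn, it ranged from -0.60 to -0.31. *CCNG1* (-0.01 under DMSO and 0.02 under 5-FU) and *RCHY1* (-0.14 and -0.06) showed no detectable difference, with 95% intervals of -0.15 to 0.13 and -0.14 to 0.17 for *CCNG1* and of -0.35 to 0.06 and -0.28 to 0.17 for *RCHY1*.

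*TP53INP1* lay in a stretch of chromosome 8 where most genes were higher in *KO* cells. Among its 40 nearest tested neighbours, 20 on each side (chr8:91059318-100259278), 35 were higher in *KO* cells under DMSO and 37 under 5-FU, with a median log2 difference of 0.39 and 0.34. *TP53INP1* exceeded this median by 1.05 under DMSO and 0.52 under 5-FU. None of the 40 neighbours reached its value under DMSO and 4 did under 5-FU. Around the other 5 regulators the medians of 40 neighbours were between -0.08 and 0.08. The part of this stretch in the *TP53INP1* result was not tested.

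The 5-FU response itself was then compared between genotypes, as the response of *KO* cells minus that of *WT* cells. *MDM2* was called, with a smaller response in *KO* cells (-0.92 ± 0.094, 95% interval -1.12 to -0.72, FDR = 4.79e-06). This was 1 call in the lower and 0 in the higher direction among the 6, beside 6.66% and 3.42% of all genes. The counts behind these shares, 551 higher and 1073 lower, became 676 and 844 with TMM factors and 703 and 674 with DESeq2. By FDR alone 2 regulators were higher and 2 lower (26.1% of all genes in either direction). The median of the 6 was 0.06, and that of all genes -0.09. *TP53INP1* also had a smaller response (-0.58, FDR = 0.00041), at an inverse fold of 1.497 and thus just under the minimum. It was called, at -0.59 to -0.62, without *WT* DMSO replicate 1 or 3, *KO* DMSO replicate 1 or *KO* 5-FU replicate 3. Without *WT* 5-FU replicate 2 the *TP53INP1* value was -0.70. Over all single omissions it ranged from -0.70 to -0.45, and DESeq2 gave -0.50, which was not called. *PPM1D* had a larger response in *KO* cells (0.32, FDR = 0.00194), as had *MDM4* (0.33, FDR = 0.0374), both below the minimum fold change. When each of the 11 libraries was left out in turn, the *MDM4* value ranged from 0.16 to 0.51 with an FDR of up to 0.152, whereas that of *MDM2* ranged from -1.06 to -0.76. For *CCNG1* (0.03, -0.18 to 0.23, FDR = 0.879) and *RCHY1* (0.09, -0.21 to 0.39, FDR = 0.69) no difference in response was detected.

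On the linear scale the gain under 5-FU was 978 CPM in *WT* and 619 CPM in *KO* cells for *MDM2*. For *TP53INP1*, by contrast, the gain was larger in *KO* cells (216 and 363 CPM) although the fold change was smaller, from a DMSO level that was already higher. *PPM1D* gained 137 and 213 CPM. The sign of the genotype difference in response thus depended on the scale for *TP53INP1* but not for *MDM2* or *PPM1D*.

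The ratio of *MDM2* to *MDM4* counts was formed within each library and is independent of the scaling between libraries, although it is not a ratio of molecules, since the transcripts differ in length. In *WT* cells it was 2.19, 2.07 and 2.02 under DMSO and 22.5 and 21.7 under 5-FU. In *KO* cells it was 2.66, 2.65 and 2.83 under DMSO and 11.8, 12.2 and 12.3 under 5-FU. Replicates were close in every state, including the 2 *WT* 5-FU libraries that differed in both genes. The state means were 2.09 ± 0.0907, 22.1 ± 0.564, 2.71 ± 0.104 and 12.1 ± 0.261, without overlap. The mean ratio of *PPM1D* to *CCNG1* counts was 0.249 and 0.756 in *WT* cells and 0.293 and 1.08 in *KO* cells under DMSO and 5-FU. Here the 2 *WT* 5-FU libraries lay apart, at 0.832 and 0.679. That of *CCNG1* to its paralog *CCNG2* stayed between 4.62 and 5.11 in all 4 state means.

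**Figure D2:**
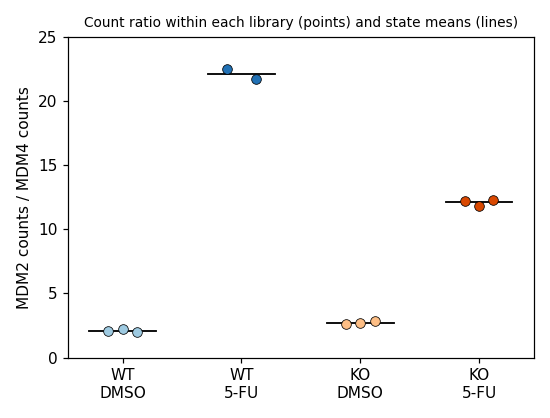
Ratio of *MDM2* to *MDM4* counts (y axis, from 0) within each library (points) and mean of each state (lines). Under 5-FU the ratio was 21.7 and 22.5 in *WT* cells and 11.8 to 12.3 in *KO* cells, and under DMSO it was 2.02 to 2.83 in all libraries.

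Other regulators of p53 were examined as 8 lists with 76 genes, of which 75 were tested (*PPM1E* was at 0 to 8 counts). In *WT* cells 10 rose and 6 fell under 5-FU, and in *KO* cells 13 rose and 7 fell, with medians of -0.10 and -0.05. These were 13.3% and 8% of the 75 in *WT* cells, where 18.5% and 9.38% of all genes were called, and 17.3% and 9.33% in *KO* cells, beside 13.3% and 12%. In *KO* against *WT* cells 4 were called higher and 0 lower under DMSO (5.33% and 0%, beside 9.1% and 4.97% of all genes), and 4 higher and 1 lower under 5-FU (5.33% and 1.33%, beside 7.58% and 10.6%). In these 4 comparisons the lists together were not called more often than all genes, except in the higher direction in *KO* cells under 5-FU, and the counts per list below are small.

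Genes that p53 induces and that act back on it were the list with the most calls. Of 7, 4 rose and 1 fell in *WT* cells, and 4 rose and 0 fell in *KO* cells, with a median of 1.0004 and 0.97. Among all genes 18.5% were called higher and 9.38% lower in *WT* cells, and 13.3% and 12% in *KO* cells. The AKT inhibitor *PHLDA3* rose from 30.9 ± 1.69 to 180 ± 34.7 CPM in *WT* (log2 2.54) and from 47.7 ± 4.13 to 197 ± 3.36 CPM in *KO* cells (2.04). *ZMAT3*, an RNA-binding p53 target, rose from 42.3 ± 1.43 to 205 ± 17.4 CPM (2.28) and from 54.9 ± 3.85 to 224 ± 4.43 CPM (2.03). *RPS27L* (1.75 and 1.21) and *PML* (1.0004 and 0.97) made up the 4. *CCNG2* had 0.48 and 0.56 and, like *CCNG1*, was not called. *TP73*, a relative of p53, was not called in either genotype (-0.49 and 0.47) but had a larger response in *KO* cells (0.96, FDR = 9.06e-05) and was 0.79 higher there under 5-FU.

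Among 12 ubiquitin ligases that act on p53 other than MDM2 and RCHY1, *SIAH1* fell in *WT* cells (-0.63, from 27.1 ± 0.753 to 17.6 ± 2.17 CPM). It was the only call of edgeR in this list under 5-FU in either genotype, with medians of -0.12 and -0.23. Shares of all genes called higher and lower were 18.5% and 9.38% in *WT* and 13.3% and 12% in *KO* cells. At an unadjusted p under 0.05, 2 ligases were higher and 7 lower in *KO* cells, and DESeq2 called 1 higher. *SIAH1* also counts in the list above. Among 10 deubiquitinases and ribosomal or nucleolar proteins that bear on MDM2, *USP2* rose in *WT* (0.65) and *KO* cells (0.89), and *NPM1*, a nucleolar protein that binds MDM2, fell from 2242 ± 162 to 1285 ± 119 CPM (-0.80) and from 1618 ± 11.2 to 908 ± 15.02 CPM (-0.83). *RPL23* fell in *KO* cells (-0.68) and was not called in *WT* cells (-0.39), and the difference of these responses (-0.30, FDR = 0.0289) was not called. In this list 1 of 10 rose and 1 fell in *WT* cells, and 1 rose and 2 fell in *KO* cells, beside the same shares. USP2 is known to stabilize MDM2, whereas ribosomal proteins such as RPL23 inhibit it.

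Of 10 kinases upstream of p53, 1 rose and 2 fell in each genotype. These are too few to compare closely with the shares of all genes (18.5% and 9.38% in *WT*, 13.3% and 12% in *KO* cells). *PLK3* rose from 36.6 ± 2.66 to 180 ± 21.2 CPM in *WT* (2.30) and from 38.4 ± 2.32 to 193 ± 7.77 CPM in *KO* cells (2.32). *CHEK1*, the checkpoint kinase activated by stalled replication, fell from 82.5 ± 3.92 to 34.8 ± 3.39 CPM (-1.25) and from 64.6 ± 0.787 to 40.9 ± 1.40 CPM (-0.66), a difference in response of 0.59 (FDR = 0.000241). *DYRK2* fell by 0.71 and by 0.64 on the log2 scale. *ATM*, the kinase of the response to double-strand breaks, was not called under 5-FU (0.04 and 0.02) but was higher in *KO* cells under DMSO (0.67, FDR = 3.32e-05) and under 5-FU (0.65, FDR = 0.000127). Among 11 enzymes that acetylate, methylate or deacetylate p53, *KAT2B* rose (0.81 in *WT* and 1.07 in *KO* cells) and *KAT5* fell (-0.71 and -0.68). These were 1 of 11 in each direction and genotype, beside the same shares of all genes.

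For 6 ASPP proteins and binding partners, 2 rose and 0 fell in each genotype. Of all genes, 18.5% were called higher and 9.38% lower in *WT* cells, and 13.3% and 12% in *KO* cells. The 2 were the p53 inhibitor *PPP1R13L* (iASPP, 0.94 in *WT* and 1.07 in *KO* cells) and *TP53INP2* (1.51 and 1.88), the paralog of *TP53INP1*. *TP53INP2* was also higher in *KO* cells, as *TP53INP1* was, by 0.76 under DMSO (FDR = 3.45e-06) and 1.13 under 5-FU (FDR = 2.58e-08). Its levels were 8.21 ± 0.0943 and 23.4 ± 1.52 CPM in *WT* and 13.9 ± 1.51 and 51.1 ± 1.53 CPM in *KO* cells under DMSO and 5-FU.

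Among the PP2A subunits that form the complex with cyclin G1, 1 of 9 rose and 1 fell in *WT* cells, and 2 rose and 1 fell in *KO* cells. Again these are too few to compare closely with the shares of all genes (18.5% and 9.38%, and 13.3% and 12%). *PPP2R5B* rose (0.75 and 0.80), *PPP2R5A* fell (-0.69 and -0.64), and *PPP2CB* rose in *KO* cells (0.61; 0.27 in *WT* cells, not called). Of the relatives of PPM1D, 0 of 11 were called by edgeR or DESeq2 in *WT* cells. By edgeR, 18.5% of all genes were called higher there and 9.38% lower. The 11 had log2 fold changes of -0.45 to 0.52 and a median of -0.10, and at an unadjusted p under 0.05 there were 5 higher and 4 lower. In *KO* cells *PPM1A* rose from 68.0 ± 1.03 to 127 ± 3.17 CPM (0.90), *PPM1J* rose (0.59) and *PPM1N* fell (-0.75). The response of *PPM1A* differed between genotypes (0.59, FDR = 0.000196). That of *PPM1N* was called by edgeR (-0.65, FDR = 0.0246) but not by DESeq2 (-0.57, FDR = 0.108). *ILKAP* was higher in *KO* cells under DMSO (1.14) and 5-FU (1.102).

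The genes with the most similar profile were found for each regulator by the smallest Euclidean distance of log2 CPM, centred per gene, over the 11 libraries. As the libraries fall into the same 4 states, a high correlation is easily reached, and r is given as a description. For *MDM2* these were *KRT5* (distance 0.489, r = 0.9937), *LTBP2* and *BTBD19*. *KRT5* changed by 3.74 in *WT* and 2.58 in *KO* cells. For *PPM1D* they were *PGF* (0.466, r = 0.9936), *CCN2* and *PTPRE*, and for *TP53INP1* they were *CPA4* (0.504, r = 0.9953), *GDF15* and *CYP4F3*, which were between 1.53 and 1.64 higher in *KO* cells under DMSO. The nearest genes of *MDM4* were *ZBTB10* (0.163, r = 0.9707), *INTS8* and *RASA2*, those of *CCNG1* were *GCC2* (0.164, r = 0.9815), *ZC3HAV1* and *OCRL*, and those of *RCHY1* were *GNAQ* (0.208, r = 0.9186), *MBTD1* and *ANAPC4*.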

How the data were processed

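Bulk RNA-Seq of HCT116 cells was analysed in 11 of 12 deposited libraries, grouped by their titles. According to the study's methods, the authors mapped paired-end reads to GRCh38 with ENSEMBL genes in CLC Genomics Workbench. The deposited values are raw counts per gene symbol. The strand setting of counting was not given in the sources used here. The copied library showed the column header of *WT* DMSO replicate 3, and the headers of the *WT* 5-FU files numbered replicates 2 and 3 as 1 and 2.

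A gene was tested where any library held 20 or more counts of it. A quasi-likelihood model with 1 mean per state was fitted over all 11 libraries with edgeR 4.0.16 (R 4.3.3) after upper-quartile scaling (factors 0.955 to 1.05), two-sided, with Benjamini-Hochberg adjustment, and was tested on simulated data. Totals of 22831415 to 39064210 counts (median 25698417) and a biological coefficient of variation of 6.72% set the precision. Alternatives were TMM, DESeq2 1.42.0, other filters, 1 RUVg factor, a replicate block, no minimum fold change and leaving out each library. CPM per kilobase used the canonical transcripts of GENCODE 44.

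The 6 regulators, the lists and the tests were chosen with earlier results of these data known. Named were all 6 regulators, from each list the 2 genes with the largest change called in each direction of a comparison, the 3 genes most alike to each regulator, and *CDKN1A* and *MIR34AHG* as checks. *RPS27L*, *PML* and *CCNG2* and values of list genes in comparisons where they were not called were added after their values were seen. Seed matches were searched in 3′ UTRs of GENCODE 44 and p53 matches in RefSeq start regions.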

Additional observations from a re-analysis of the deposited data

Results flagged for a closer look

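A difference between the 5-FU responses of the genotypes (log2, *KO* minus *WT*) that passed an FDR of 0.05 in the interaction test of edgeR is listed for 4 of the 6 regulators, *MDM2* (-0.92), *TP53INP1* (-0.58), *PPM1D* (0.32) and *MDM4* (0.33). Of these, *MDM2* alone also passed the minimum fold change. By FDR alone, 26.1% of all genes passed in either direction. The *MDM4* value rests on the 2 *WT* libraries treated with 5-FU and ranged from 0.16 to 0.51 when single libraries were left out. Among the other genes examined, the calls were *CDKN1A* (-1.24), *PPM1N* (-0.65), *CHEK1* (0.59), *PPM1A* (0.59) and *TP73* (0.96). Of the 75 list genes tested, 3 were thus called higher and 1 lower (4% and 1.33%). The shares of all genes were 3.42% and 6.66%, so that the lists were not called clearly more often. *PPM1N* had between 58 and 187 counts per library, the fewest of these genes, and was not called by DESeq2 (-0.57, FDR = 0.108). No explanation was tested for any of them.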

How the results depend on the processing

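Across the alternatives, 521 log2 fold changes of the 6 regulators kept their direction and side of the threshold, 27 became called, 4 lost their call and 18 changed sign, the last for *MDM4*, *CCNG1* and *RCHY1* in comparisons in which they were not called. The 1 RUVg factor differed most, and 98.2% of its variance lay between treatments. It widened the SE of the regulators' 5-FU changes and left few calls (3 genes higher and 0 lower in *WT* cells, 1 and 0 in *KO* cells, over all genes). With it, 1 regulator was called higher under 5-FU in *WT* and 1 in *KO* cells, *MDM2* in both (FDR = 0.008 and 0.0328), 3 were called higher in *KO* cells under DMSO, and 2 had a smaller response there. Signs changed with it for *MDM4* under 5-FU (3.04 and 2.98) and in the difference of responses (-0.0606), for *RCHY1* under 5-FU (2.004 and 1.85), between genotypes (0.21 under DMSO, 0.0542 under 5-FU) and in the difference (-0.16), and for *CCNG1* between genotypes under DMSO (0.46) and in the difference (-0.30).

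With a minimum of 20 counts in every library, 2 regulators had a smaller response, *TP53INP1* now included (-0.60), and *CCNG1* changed sign under DMSO (0.0062). TMM and DESeq2 each called 2 higher in *KO* cells under 5-FU, by adding *PPM1D*. Without a minimum fold change, 1 was lower under 5-FU in *WT* cells, 3 were higher in *KO* cells under DMSO, 3 were higher and 1 lower under 5-FU, and 2 responses were larger and 2 smaller. Leaving out 1 library gave 0 to 1 regulator lower under 5-FU in *WT* cells, 1 to 2 higher and 0 to 1 lower in *KO* cells under 5-FU, and 1 to 2 with a smaller response. Over these, values that changed sign ranged for *RCHY1* from -0.4276 to 0.0034 for 5-FU in *WT* cells, from -0.2601 to 0.1711 between genotypes under 5-FU and from -0.1174 to 0.3155 in the difference, and for *CCNG1* from -0.0325 to 0.0193 between genotypes under DMSO, from -0.1348 to 0.1861 under 5-FU and from -0.1275 to 0.195 in the difference. The libraries whose absence changed a sign were *WT* 5-FU replicates 2 and 3 and, for *CCNG1*, *KO* DMSO replicate 2 (-0.0026 in the difference). A lone *WT* 5-FU library is assumed to vary like the others. The causes of these changes were not tested, except where the setting itself gives them.

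Between libraries with the same replicate number, deviations from the state means correlated at -0.0914 to 0.0782 by title. By column header, a choice made after seeing the data, the correlations were -0.15 to 0.0441. With so few libraries per state their deviations are tied to each other, so that these values cannot decide whether libraries were paired. With either numbering as a replicate block, 2 regulators had a smaller response, with *TP53INP1* at -0.59, and the FDR of *MDM4* in the difference of responses was 0.0531 with the title numbers. Over all genes, requiring 20 counts in every library left 1910 genes called higher in *WT* and 1380 in *KO* cells under 5-FU, and 513 and 1127 called lower in *KO* cells under DMSO and 5-FU. RUVg left 783 called higher in *KO* cells under DMSO and 466 with a smaller response, and DESeq2 left 674 with a smaller response. Without a minimum fold change, 5143 genes were higher and 4569 lower in *WT* and 4286 and 5451 in *KO* cells under 5-FU, 3943 and 3529 between genotypes under DMSO, 3483 and 4512 under 5-FU, and 1622 and 2585 in the difference of responses.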
